A study of Mus musculus with 6 samples.

Results

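Cell cycle and mitosis genes were examined in RNA-seq data from the vestibular epithelium of the mouse, the tissue of the inner ear whose hair cells (HCs) sense head acceleration. The set held 36 genes of the 52636 in the deposited table, chosen by gene symbol: the D-type, E-type, A-type and B-type cyclins, 4 cyclin-dependent kinases (CDKs), 3 CDK inhibitors, Rb1 and E2f1, 7 genes that license replication origins, 3 genes of DNA replication and nucleotide supply, and 9 genes of mitosis. Each symbol matched 1 row. The choice used no measured value of the table, but it was made with earlier results of these data known.

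All 6 animals were male 129S1/SvImJ mice, 2 to 4 months old when the 8 weeks of exposure began. The 3 IDPN animals drank water with 3,3'-iminodipropionitrile (IDPN), a compound known to damage HCs, at 30 mM over 8 weeks, and the 3 Control animals drank water without it. Each library was made from the 2 utricles and 6 cristae of 1 animal, which hold HCs, supporting cells and the nerve endings and connective tissue that stay attached on dissection, so a value is an average over these cells. The labels name the same batch for every library. Control titles share a code that no IDPN title carries, and an effect of what that code stands for cannot be told apart from an effect of IDPN.

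In a dividing cell, D-type cyclins with CDK4 or CDK6 phosphorylate the retinoblastoma protein RB, which releases E2F factors and switches on genes for DNA synthesis. Cyclin E and cyclin A with CDK2 then drive S phase, and B-type cyclins with CDK1 drive mitosis, while the CDK inhibitors oppose these kinases. HCs and supporting cells of the adult mammalian vestibular epithelium are almost all out of the cycle, and some D-type cyclins and CDK inhibitors are known to be expressed in cells that no longer divide.

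Total estimated counts ranged from 40474847 to 43566332 per library, so 3 counts in a library, used here as a floor, correspond to between 0.0689 and 0.0741 CPM. The protocol used no molecular identifiers, and this floor covers counting error only. On the first principal component of the 500 most variable genes, which held 62.1% of the variance, IDPN 2 scored 20.8 and IDPN 1 and IDPN 3 scored −0.33 and 3.70, while Control animals scored from −9.69 to −6.94. IDPN 2 therefore stood apart, and results that rest on it are given without it. The summed normalized count of 8 HC markers ran from 24042 to 25292 in Control and from 14832 to 16283 in IDPN, with 6 of the 8 called lower. Myo7a (log2-Fold_Change 0.015, DESeq2 Padj = 0.987) and Myo6 (−0.21, DESeq2 Padj = 0.485) were not called. The sum of 8 supporting cell markers ran from 220850 to 295112 in Control and from 167456 to 199934 in IDPN. DESeq2 called 1 of these 8 lower, Sparcl1 (log2-Fold_Change −0.59, Padj = 0.0365), whose Control mean of 135459 was a large part of the sum. Of the 7 tested, 3 were lower and 0 higher at an unadjusted DESeq2 p under 0.05: Sparcl1, Otog (−0.50, Padj = 0.0205) and Slc1a3 (−0.39, Padj = 0.135). These 3 did not overlap between groups, and edgeR called 0 of the 7. Hes5 was at 5.77 or less in each library, while Sox2 ran from 195 to 233 in Control and from 109 to 237 in IDPN. In counts from bulk tissue fewer cells of a type and less RNA per cell cannot be told apart. By a rough estimate from images of earlier mice, the study found hair bundle numbers in the central utricle unchanged after this exposure. It also saw HCs being pushed out of the epithelium.

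Most genes of mitosis, and the E-type, A-type and B-type cyclins, were low in both groups, whereas Ccnd2, Ccnd3, Cdk4, Cdkn1c, Pcna and Mcm4 were abundant. All 36 genes had at least 1 count, 10 had fewer than 10 counts in at least 4 libraries, and 10 were at 0 in at least 1 library. A normalized count is the estimated count divided by the size factor of its library. In Control, Cdk4 reached 963 normalized counts per kb of exon, Ccnd3 601, Ccnd2 539, Pcna 333, Cdkn1c 244 and Mcm4 231. The level of Cdk4 stood at percentile 91.2 of 17105 protein-coding genes and that of Pcna at percentile 80.1. At the low end, Mki67 stood at 0.300 normalized counts per kb and percentile 6.83, Top2a at 0.506 and percentile 8.51, and Aurkb at 0.131. Cdk4 and the cyclins D3 and D2 thus stood at the top of the set, and most genes of mitosis stood at its foot.

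**Figure D1:**
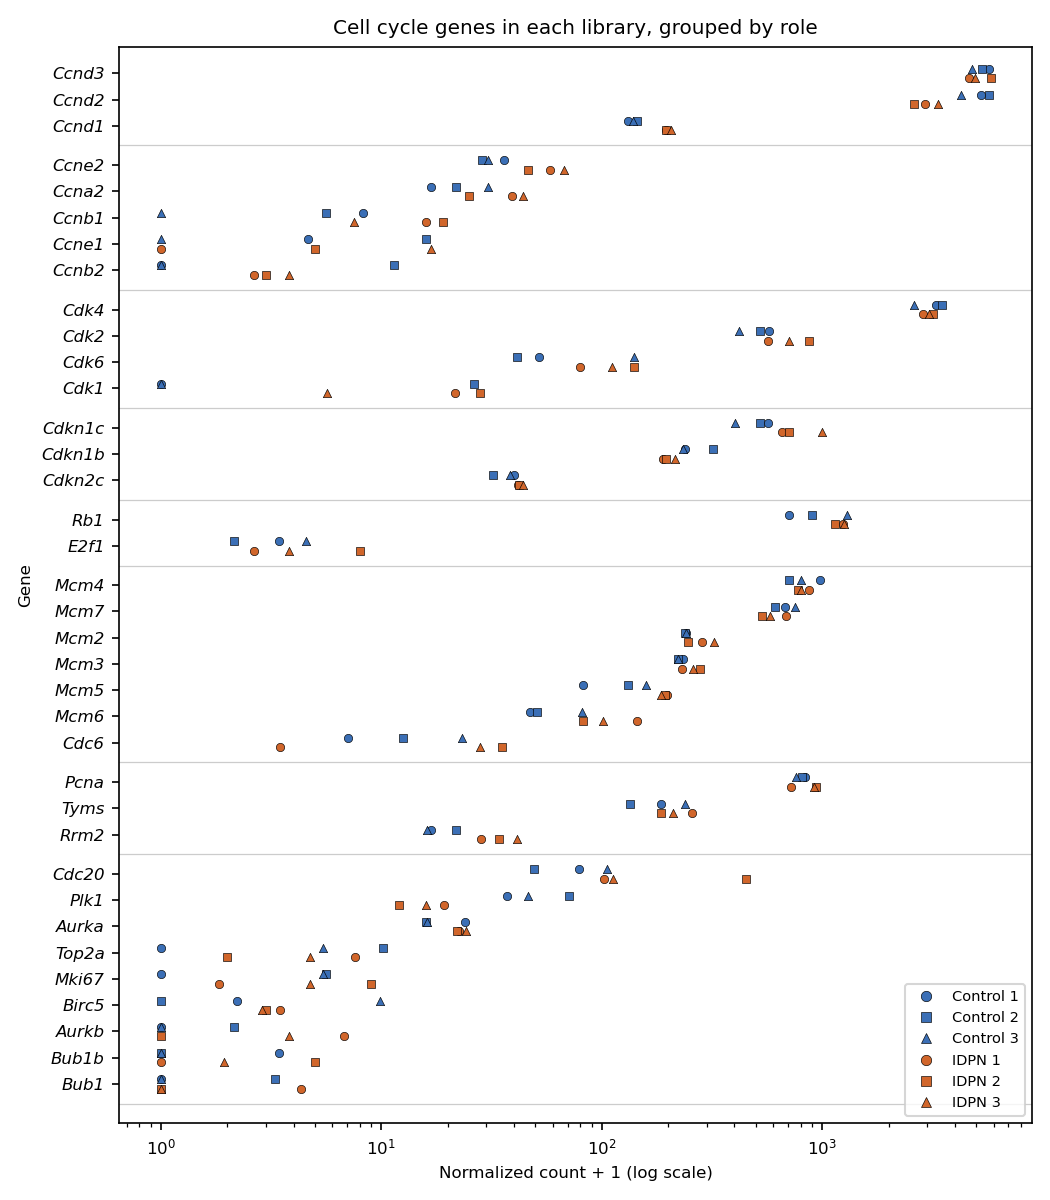
The normalized count plus 1 (log axis) is drawn for each of the 36 genes in each of the 6 libraries, with Control in blue and IDPN in orange, and with circles, squares and triangles for animals 1, 2 and 3. The D-type cyclins Ccnd2 and Ccnd3 and the kinase Cdk4 lie above 2600 in every library, Mki67 and Top2a lie below 11, and Ccnd2 and Plk1 separate with IDPN to the left.

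Of the 36 genes, 28 passed DESeq2's filter on the mean count over all 6 libraries and were tested, while Ccnb2, E2f1, Mki67, Top2a, Aurkb, Bub1, Bub1b and Birc5 did not. Of the 28, 4 (14.3%) were called by DESeq2 at an adjusted p (Padj) under 0.05 and a fold change above 1.5. Over all 17650 genes tested the share called was 5.75%. Cdkn1c and Cdc20 were upregulated (2 of 28, beside 2.32% of all genes tested), and Ccnd2 and Plk1 were downregulated (2 of 28, beside 3.42%). The 4 genes act at different steps: Ccnd2 in entry into the cycle, Cdkn1c in its arrest, and Plk1 and Cdc20 in mitosis. At an unadjusted DESeq2 p under 0.05 there were 7 genes with higher and 2 with lower values among the 28, which is 9 of 28 beside 16.9% of all genes (7.77% higher and 9.15% lower).

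The libraries of Control and IDPN did not overlap for 11 of the 28 tested genes, beside 22.5% of all genes tested. Ccnd1, Ccne2, Cdkn1c, Cdkn2c, Mcm2, Mcm5, Mcm6 and Rrm2 were higher in every IDPN library than in any Control library (8 of 28, beside 11.1% of all genes). By normalized count, Ccnd2, Cdkn1b and Plk1 were lower in every IDPN library (3 of 28, beside 11.4%). The log2-Fold_Change was above 0 for 21 of the 28, beside 51.6% of all genes, and its median was 0.32 against 0.015 over all genes.

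These counts depended on the test and the scaling. The edgeR quasi-likelihood test called 1 of 26 genes, Ccnd2, beside 3.21% of 16310 genes (1.02% higher and 2.19% lower). With libraries scaled by total counts, which moved the median log2-Fold_Change of all genes by 0.25, DESeq2 called 3 of 27 genes (4.92% of all genes), all 3 of them higher (Cdkn1c, Cdc20 and Cdk2, beside 3.64%) and none lower (beside 1.28%). At an unadjusted p under 0.05 this scaling gave 8 higher (beside 15.8% of all genes) and 2 lower (beside 2.96%), and 24 of 27 estimates were above 0, beside 77% of all genes. A change relative to the typical gene, as given below, is therefore not a change relative to all RNA of the library.

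**Figure D2:**
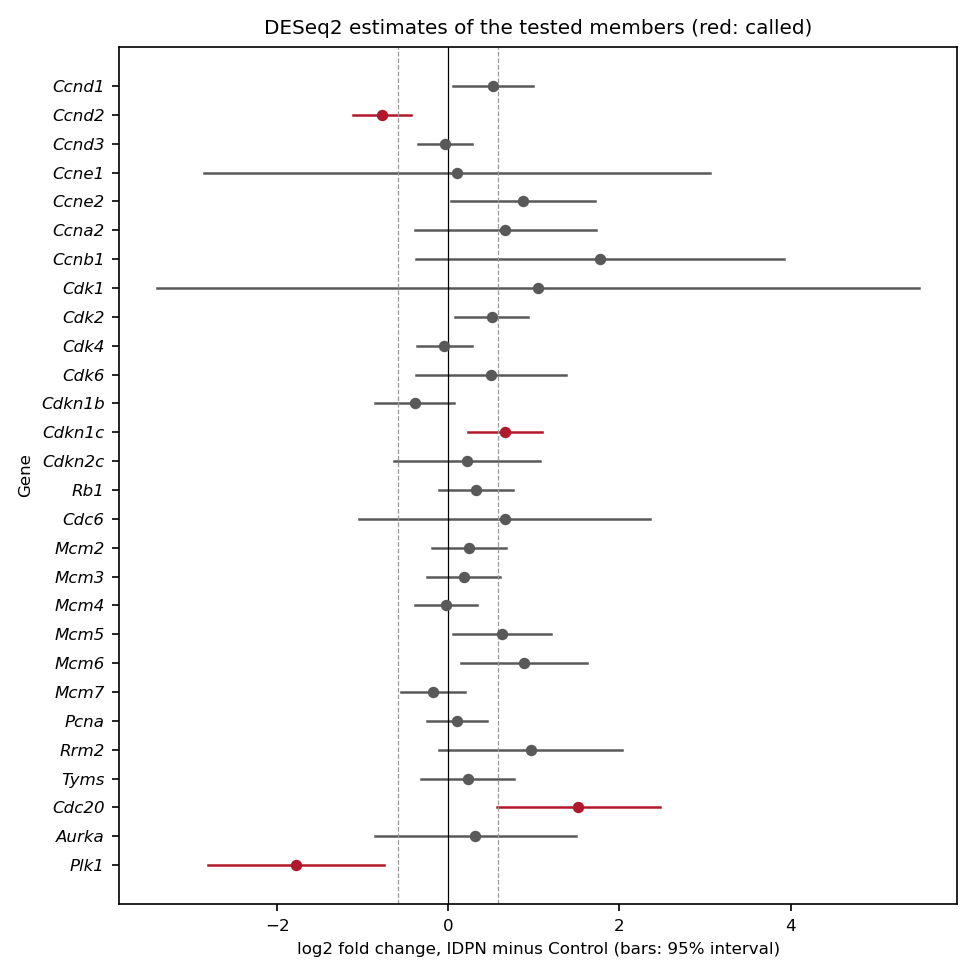
The DESeq2 log2-Fold_Change of IDPN relative to Control (horizontal axis) is drawn for the 28 tested genes with its 95% interval, the dashed lines marking a fold change of 1.5 in either direction and red marking the 4 called genes. Ccnd2 and Plk1 lie to the left of 0 and Cdkn1c and Cdc20 to the right, and the intervals of Ccne1, Ccnb1 and Cdk1 are wide.

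Of the D-type cyclins, Ccnd2 fell and the other two were not called. Ccnd2 (ENSMUSG00000000184.12, GRCm38 chromosome 6, 127125162 to 127152193, minus strand) encodes cyclin D2. In Control 1, 2 and 3 its normalized counts were 5238, 5686 and 4278, and in IDPN 1, 2 and 3 they were 2931, 2605 and 3341. Every IDPN library lay below every Control library. The mean fell from 5067 ± 719 (SD, n = 3) to 2959 ± 369 (SD, n = 3), a log2-Fold_Change of −0.78 (DESeq2 Padj = 0.000401, SE 0.17). Ccnd2 was the one gene of the set that edgeR also called (Padj = 0.0336), and DESeq2 called it whichever library was left out, with a log2-Fold_Change between −0.88 and −0.69 and Padj between 8.28e-06 and 0.0187. Under total-count scaling the estimate was −0.50 (DESeq2 Padj = 0.176), which was not called. Of the 36 genes, 14 share exon bases with another annotated gene, 13 of them with a gene on the other strand, and the reads carry no strand. Ccnd2 shares 368 bases with 9330179D12Rik, which had 9.93 to 80.8 normalized counts, and 372 with Gm43126, which was at 0 in all libraries.

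Ccnd1, which encodes cyclin D1, was much less abundant than the other D-type cyclins per length, at 29.2 normalized counts per kb in Control. Its normalized counts were 131, 144 and 137 in Control against 194, 194 and 204 after IDPN, so the groups did not overlap and each was narrow (137 ± 6.66 and 198 ± 5.93, SD, n = 3). The log2-Fold_Change of 0.52 (SE 0.24) did not pass the test over all genes (DESeq2 Padj = 0.218). Ccnd1 shares 1100 exon bases with a gene on the other strand. Ccnd3, which encodes cyclin D3 and was the most abundant cyclin per length, had normalized counts of 5720, 5285 and 4807 in Control against 4628, 5802 and 4957 after IDPN, and these overlapped. Its log2-Fold_Change was −0.04 with a 95% interval from −0.35 to 0.27 (DESeq2 Padj = 0.946), and the sign turned under total-count scaling (0.21).

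**Figure D3:**
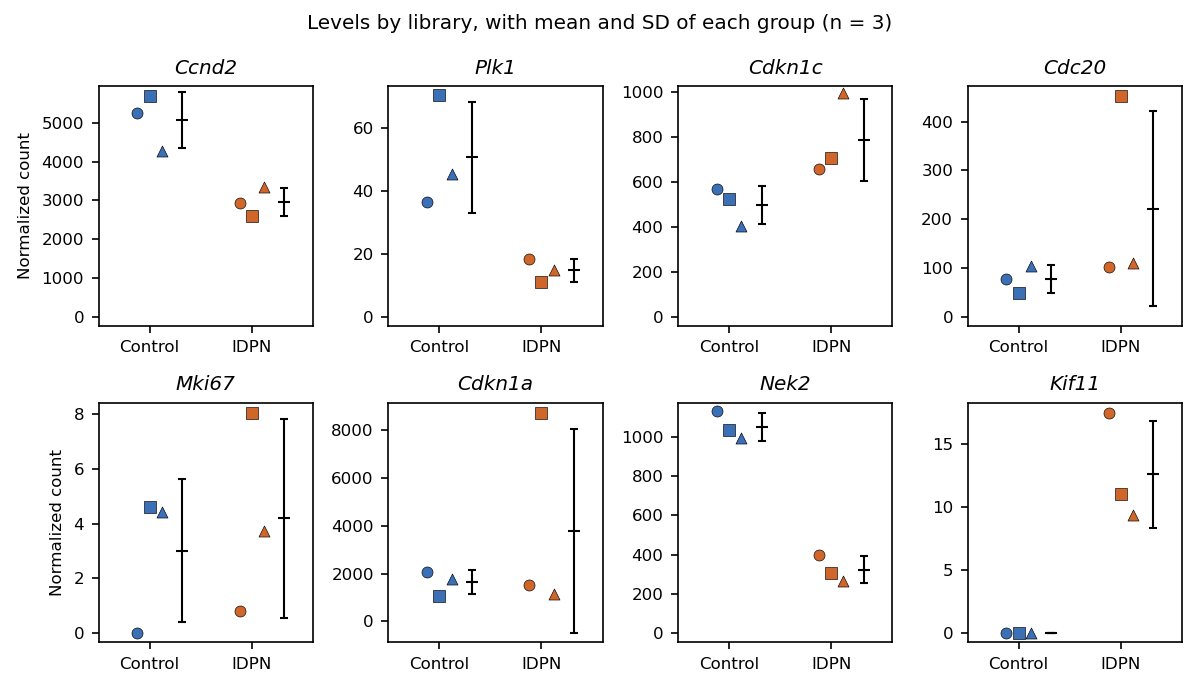
Normalized counts (vertical axes, each with its own range and starting near 0) are drawn for 8 genes, with circles, squares and triangles for animals 1, 2 and 3 and with the mean and SD of each group (n = 3) beside the points. Ccnd2, Plk1, Cdkn1c, Nek2 and Kif11 separate the groups, whereas the high mean of Cdc20 and of Cdkn1a in IDPN is carried by IDPN 2.

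The balance of D-type cyclins was also compared within each library, per kb of exon, where the scaling of libraries cancels. These ratios were chosen after the values had been seen. Ccnd2 over Ccnd3 was 0.854, 1.00 and 0.830 in Control against 0.591, 0.419 and 0.629 after IDPN, a change by a factor of 0.610 in the mean. Ccnd2 over its partner kinase gene Cdk4 was 0.550, 0.563 and 0.566 in Control against 0.354, 0.283 and 0.377 after IDPN, and the mean ratio was 0.560 ± 0.00873 (SD, n = 3) and 0.338 ± 0.0491 (SD, n = 3). Neither ratio overlapped between groups, and since the pairs were picked on these values the ratios are a description with no test. The summed level of the 3 D-type cyclins was 10475 ± 1086 in Control against 8286 ± 464 after IDPN (SD, n = 3), and Ccnd2 carried the difference. The log2 ratio of these sums was −0.34, and under total-count scaling it was −0.077.

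None of the 4 CDK genes was called by DESeq2 or by edgeR, and Cdk2 alone had an unadjusted DESeq2 p under 0.05. Cdk4, which D-type cyclins activate, had normalized counts of 3290, 3488 and 2609 in Control against 2862, 3179 and 3056 after IDPN, a log2-Fold_Change of −0.05 with a 95% interval from −0.37 to 0.28 (DESeq2 Padj = 0.940), with the sign turned under total-count scaling (0.22). Cdk4 shares 641 exon bases with Tspan31 on the other strand, which had between 4696 and 6008 normalized counts, so part of its reads may be assigned to either. Cdk6 had 50.9, 40.4 and 139 normalized counts in Control against 78.6, 140 and 110 after IDPN. Control 3 lay among the IDPN libraries. The log2-Fold_Change was 0.50 (DESeq2 Padj = 0.650) with all libraries and 1.26 (DESeq2 Padj = 0.0330) without Control 3.

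Cdk2, the kinase that cyclin E and cyclin A activate, had normalized counts of 572, 521 and 418 in Control against 567, 875 and 708 after IDPN. The groups overlapped by a narrow margin, between Control 1 and IDPN 1. The log2-Fold_Change of 0.51 (95% interval 0.08 to 0.94, DESeq2 Padj = 0.169) was not called, while that under total-count scaling was (0.76, DESeq2 Padj = 0.0158). Cdk2 shares 34 exon bases with Pmel on the other strand, which had 2286 to 5258 normalized counts. Cdk1, the kinase of mitotic entry, had 0, 22 and 0 estimated counts in Control against 25, 27 and 5 after IDPN. Control 2 alone held all Control counts of Cdk1 and lay within the range of IDPN. The DESeq2 log2-Fold_Change was 1.05 with a standard error of 2.27 (Padj = 0.891). Without Control 2, when the remaining Control libraries are both at 0, DESeq2 called Cdk1 higher (Padj = 0.0131). In that fit Cdk1 passed the count filter through its IDPN counts alone, so this Padj is a description and no support for a rise.

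The cyclins of S phase and mitosis were all low, and none was called by DESeq2 (4 tested, 1 with an unadjusted p under 0.05) or by edgeR (2 tested). Ccne2, the most abundant of them per length and an activator of Cdk2, had normalized counts of 35.2, 27.7 and 29.4 in Control against 57.1, 45.2 and 66.3 after IDPN. The groups did not overlap, but the log2-Fold_Change of 0.87 (SE 0.43) did not pass (DESeq2 Padj = 0.270), and 609 exon bases are shared with Ints8 on the other strand. Ccna2, which acts in S phase and G2, had a mean of 22 ± 6.87 in Control against 35 ± 9.78 after IDPN (SD, n = 3; log2-Fold_Change 0.66, DESeq2 Padj = 0.605). It shares 510 exon bases with Exosc9 on the other strand, which had 730 to 871 normalized counts. Ccnb1, the cyclin partner of Cdk1, had 6, 4 and 0 estimated counts in Control against 18, 18 and 7 after IDPN, with a log2-Fold_Change of 1.77 (DESeq2 Padj = 0.434, SE 1.1). Its lowest IDPN library and its highest Control library differed by 1 count, near the floor, and their normalized counts overlapped. Ccne1 had between 0 and 17 estimated counts and Ccnb2 between 0 and 9, in libraries of both groups, and Ccnb2 was too low to be tested. The 5 genes summed to 66.4 ± 10.6 normalized counts in Control against 113 ± 20.5 after IDPN (SD, n = 3), a log2 ratio of 0.77, or 1.05 under total-count scaling.

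Among CDK inhibitors, Cdkn1c was upregulated and its relative Cdkn1b was not called. Cdkn1c (ENSMUSG00000037664.13, chromosome 7, 143458339 to 143461050, minus strand) encodes p57, which binds and blocks cyclin and CDK pairs. Its normalized counts were 566, 523 and 401 in Control against 658, 705 and 995 after IDPN, with no overlap. The mean rose from 497 ± 85.6 to 786 ± 182 (SD, n = 3), a log2-Fold_Change of 0.66 (DESeq2 Padj = 0.0476, SE 0.22). This call was close to the threshold. The edgeR test gave Padj = 0.105, DESeq2 without independent filtering gave Padj = 0.0687, and of 6 fits with a library removed only that without IDPN 1 called the gene (Padj = 0.0436), the others giving Padj from 0.0613 to 0.342. Total-count scaling gave a larger estimate (0.94, DESeq2 Padj = 0.00666). A gene annotated on the other strand over 625 exon bases of Cdkn1c had at most 1.21 normalized counts.

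Cdkn1b, which encodes p27 and is known to hold supporting cells of the inner ear out of the cycle, had normalized counts of 237, 317 and 233 in Control against 190, 195 and 215 after IDPN. By these values each IDPN library lay below each Control library, yet the log2-Fold_Change of −0.39 had a 95% interval from −0.86 to 0.07 (DESeq2 Padj = 0.414). The separation depended on the scaling. The estimated counts, 195, 275 and 262 in Control against 229, 194 and 230 after IDPN, overlapped. Under total-count scaling the log2-Fold_Change was −0.13 (DESeq2 Padj = 0.821). Cdkn1c over Cdkn1b within a library, per kb, was 5.35, 3.68 and 3.84 in Control against 7.75, 8.08 and 10.3 after IDPN, a factor of 2.03 between the means. This pair too was chosen after its values had been seen, for genes that lay apart in opposite directions, so its lack of overlap is a description with no test. Cdkn2c, which encodes the CDK4 and CDK6 inhibitor p18 and was the lowest of these inhibitors, had 38.8, 31.2 and 37.4 normalized counts in Control against 40.6, 41.2 and 42.9 after IDPN (log2-Fold_Change 0.21, DESeq2 Padj = 0.883).

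**Figure D4:**
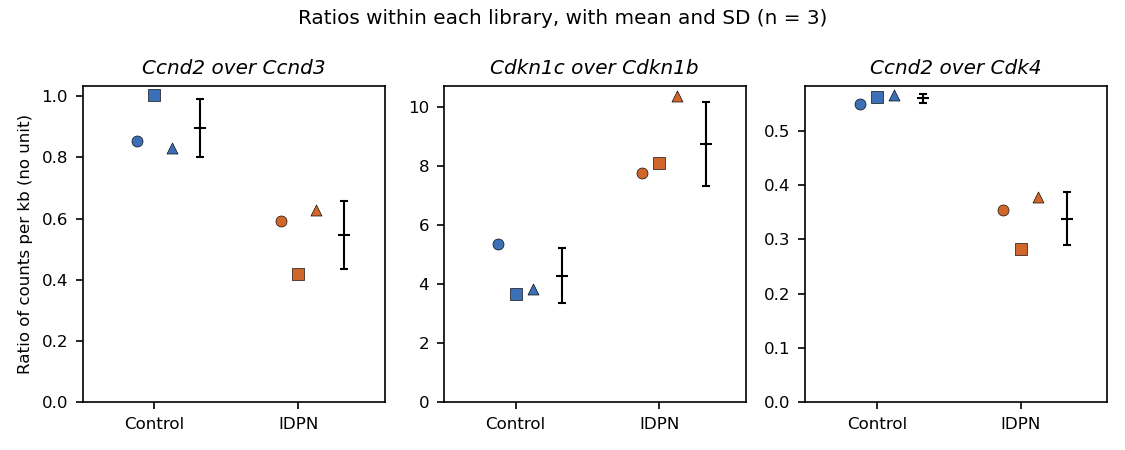
Ratios of normalized counts per kb within each library (vertical axes from 0, no unit) are drawn for Ccnd2 over Ccnd3, Cdkn1c over Cdkn1b and Ccnd2 over Cdk4, with the mean and SD of each group (n = 3). The first and last ratios are lower in all 3 IDPN libraries and the middle one is higher, with no overlap of the groups.

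The other CDK inhibitors were looked up for comparison, and none of the 3 tested was called by DESeq2 or edgeR, with 1 at an unadjusted DESeq2 p under 0.05. Cdkn1a, which encodes p21 and is a target of p53, had normalized counts of 2073, 1077 and 1786 in Control against 1512, 8712 and 1164 after IDPN. One library set its mean, since IDPN 2 held several times the count of any other library and the other IDPN libraries lay within the range of Control. The DESeq2 log2-Fold_Change was 1.21 (Padj = 0.566) with IDPN 2 and −0.30 (Padj = 0.705) without it. Cdkn2a was at 0 in all 6 libraries, and Cdkn2b (−0.57, DESeq2 Padj = 0.299) and Cdkn2d (−0.33, DESeq2 Padj = 0.239) were not called.

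Rb1, the substrate of the D-type cyclin kinases, had normalized counts of 707, 899 and 1301 in Control against 1241, 1144 and 1259 after IDPN. Control 3 was the highest of all 6 libraries. The log2-Fold_Change was 0.32 (DESeq2 Padj = 0.495), and without Control 3 it was 0.60 (DESeq2 Padj = 0.0167) and was called. Rb1 shares 408 exon bases with Lpar6 and 488 with Rcbtb2, both on the other strand, with 628 to 1081 and 2371 to 3383 normalized counts. E2f1, the factor that RB restrains, had 2, 1 and 4 estimated counts in Control against 2, 7 and 3 after IDPN and was too low to be tested. Of 17 other genes of the RB family, the E2F family and their repressor complex, 15 were tested and none was called by DESeq2 or edgeR or had an unadjusted DESeq2 p under 0.05, although several were well expressed, such as Rbl2 at 1392 to 1716 normalized counts.

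Origin licensing genes encode subunits of the MCM helicase and a protein that loads it onto DNA before S phase. In Control these genes ranged from 2.54 normalized counts per kb in Cdc6 (percentile 16.5) to 231 in Mcm4 (percentile 74.2). None of the 7 was called by DESeq2 or edgeR, with 2 at an unadjusted DESeq2 p under 0.05. Mcm4, the highest per length, had normalized counts of 980, 703 and 803 in Control against 866, 773 and 804 after IDPN, a log2-Fold_Change of −0.02 with a 95% interval from −0.39 to 0.34 (DESeq2 Padj = 0.972), its sign turned under total-count scaling (0.24). The 6 helicase subunits form 1 complex, and their estimates ran from −0.18 in Mcm7 to 0.89 in Mcm6. Mcm6 had normalized counts of 46.1, 49.6 and 80.1 in Control against 144, 81.3 and 101 after IDPN, with a gap of about 1 count between the groups. Its log2-Fold_Change was 0.89 (DESeq2 Padj = 0.162, SE 0.37), and without Control 3 it was called at 1.19 (DESeq2 Padj = 0.0449).

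Mcm5 had normalized counts of 81.3, 130 and 158 in Control against 197, 193 and 185 after IDPN (log2-Fold_Change 0.63, DESeq2 Padj = 0.225), again without overlap. Mcm2 (0.24), Mcm3 (0.18) and Mcm7 (−0.18) had DESeq2 Padj between 0.655 and 0.767. Cdc6, which loads the helicase and was the lowest of the group, had 5, 10 and 25 estimated counts in Control against 3, 34 and 29 after IDPN and overlapped widely. The sum over the 7 genes was 2166 ± 175 normalized counts in Control against 2273 ± 139 after IDPN (SD, n = 3), a difference smaller than either SD and a log2 ratio of 0.069, which became 0.32 under total-count scaling.

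None of the 3 genes of replication and nucleotide supply was called by DESeq2 or edgeR, nor had one an unadjusted DESeq2 p under 0.05. Pcna, the sliding clamp of DNA polymerases, which also serves in DNA repair, had normalized counts of 834, 808 and 757 in Control against 722, 934 and 921 after IDPN. The groups overlapped, and the log2-Fold_Change of 0.10 had a 95% interval from −0.25 to 0.45 (DESeq2 Padj = 0.857). The table also holds Pcna-ps2, by its name a copy of Pcna, so reads may be divided wrongly between the pair. Rrm2, the subunit of ribonucleotide reductase made in S phase, had 15.8, 20.8 and 15.1 normalized counts in Control against 27.3, 33.1 and 40.1 after IDPN, and the groups did not overlap (log2-Fold_Change 0.96, SE 0.55, DESeq2 Padj = 0.375). Tyms, the thymidylate synthase, ran from 133 to 238 in Control and from 185 to 256 in IDPN (0.23, DESeq2 Padj = 0.772).

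The 9 genes of mitosis fell into 2 called genes with opposite signs, Aurka at a low level, and 6 genes too low to be tested. Plk1 (ENSMUSG00000030867.7, chromosome 7, 122159439 to 122169873, plus strand) encodes a kinase that acts at centrosomes and kinetochores. It had 30, 61 and 51 estimated counts in Control against 22, 11 and 16 after IDPN, which gave normalized counts of 36.4, 70.4 and 45.4 against 18.2, 11.0 and 14.9. All IDPN libraries lay below all Control libraries. The mean fell from 50.7 ± 17.6 to 14.7 ± 3.59 (SD, n = 3), a log2-Fold_Change of −1.78 (DESeq2 Padj = 0.0171, SE 0.53). The edgeR test did not call it (Padj = 0.0731), nor did DESeq2 under total-count scaling (−1.5, Padj = 0.114), without Control 2 (Padj = 0.217), without IDPN 2 (Padj = 0.0961) or without IDPN 3 (Padj = 0.0684). A gene annotated on the other strand over 156 exon bases of Plk1 had at most 0.890 normalized counts. The estimate for Plk1 stayed between −1.97 and −1.47 in all 6 fits that left out a library.

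Cdc20 (ENSMUSG00000006398.15, chromosome 4, 118432901 to 118437352, minus strand) encodes the activator of the anaphase-promoting complex. Its normalized counts were 77.6, 48.5 and 105 in Control against 102, 452 and 111 after IDPN. IDPN 2 was far above the other 5 libraries, IDPN 1 was below Control 3, and the groups overlapped. The means were 77.0 ± 28.3 and 222 ± 199 (SD, n = 3), and DESeq2 called the gene (log2-Fold_Change 1.52, SE 0.49, Padj = 0.0325). Without IDPN 2 the estimate was 0.46 and the call was lost (DESeq2 Padj = 0.716), and the edgeR test did not call it with all libraries (Padj = 0.196). The same library raised the summed level of the 9 genes, which was 141, 151 and 183 normalized counts in Control against 161, 499 and 162 after IDPN, from a log2 ratio of 0.028 without IDPN 2 to 0.79 with it. Cdc20 shares 53 exon bases with Elovl1 on the other strand, which had 6778 normalized counts in IDPN 2 and 3402 to 4407 in the other libraries. The part of Elovl1 reads in the value of Cdc20 was not tested.

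Mki67, whose protein marks cycling cells, had 0, 4 and 5 estimated counts in Control against 1, 8 and 4 after IDPN. Top2a, the topoisomerase that untangles chromosomes before mitosis, had 0, 8 and 5 in Control against 8, 1 and 4 after IDPN. These counts overlapped and lay near the floor of 3, so a difference was not detectable at this depth. Aurkb, a kinase of the chromosomal passenger complex, had 0, 1 and 0 estimated counts in Control against 7, 0 and 3 after IDPN. Bub1 and Bub1b of the spindle checkpoint did not exceed 4 in any library, and Birc5, a partner of Aurkb, ran from 0 to 10 in Control and from 2 to 3 in IDPN. Aurka, a kinase of the spindle poles, was tested, with 19, 13 and 17 estimated counts in Control against 26, 21 and 25 after IDPN (log2-Fold_Change 0.32, DESeq2 Padj = 0.873).

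**Figure D5:**
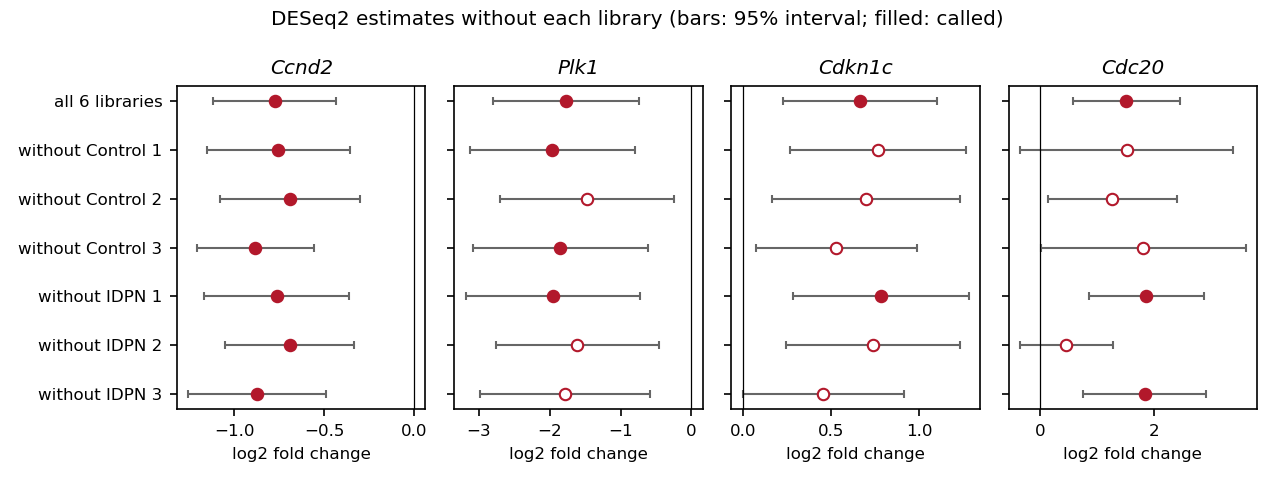
The DESeq2 log2-Fold_Change (horizontal axes, a separate range for each gene) and its 95% interval are drawn for the 4 called genes with all 6 libraries and with each library left out, filled points marking fits in which the gene was called. Ccnd2 is filled in every row, Plk1 in 3 of the 6 rows that leave out a library, Cdc20 in 2 and Cdkn1c in 1.

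Leaving out a library moved which genes of the set were called. Without Control 3, DESeq2 called 5 of 26 genes, which were Ccnd2 and Plk1 with lower values and Cdk6, Rb1 and Mcm6 with higher values, beside 8.33% of all genes tested in that fit. Without IDPN 2, the only gene called was Ccnd2 (1 of 28, beside 4.62%). Without IDPN 1 the same 4 genes were called as with all libraries (beside 4.9%). There were 2 calls without Control 1 (Ccnd2 and Plk1, beside 3.9%), without Control 2 (Ccnd2 and Cdk1, beside 3.93%) and without IDPN 3 (Ccnd2 and Cdc20, beside 4.32%).

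Further genes of the cell cycle were taken from a list of 118 symbols, of which 117 were in the table and 106 were tested. DESeq2 called 3 of the 106 (2.83%, beside 5.75% of all genes tested), and the median log2-Fold_Change of the 106 was 0.12. All 3 belong to the 43 genes of the spindle, the kinetochore and cytokinesis, of which 36 were tested. DESeq2 called none of 38 tested genes of replication, of which 2 had an unadjusted p under 0.05, and none of 14 genes of CDK regulation, of which 0 had. The edgeR test called 2 of 97 genes of the list (2.06%, beside 3.21% of all genes it tested), both also called by DESeq2, and none outside the spindle group. The counts of both tests include Kif11, which passed their count filters through its IDPN counts alone, as described below. Control and IDPN libraries stood apart for 27 of the 106 genes (25.5%, beside 22.5% of all genes tested), a share near the background. Of these, 20 were higher (18.9%, beside 11.1%) and 7 lower (6.6%, beside 11.4%).

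Nek2, which encodes a kinase of the centrosome, had normalized counts of 1130, 1034 and 991 in Control against 400, 306 and 263 after IDPN. The groups were far from overlap, and 298 exon bases of Nek2 are shared with a gene annotated on the other strand. The study lists Nek2 among the genes lower in all its models, and as selective for HCs from the literature. How far the lower HC marker sum accounts for the value of Nek2 was not tested. The mean fell from 1052 ± 71.3 to 323 ± 69.8 (SD, n = 3), a log2-Fold_Change of −1.70 (DESeq2 Padj = 1.71e-14, SE 0.20), and the call was kept by edgeR (Padj = 0.00114), under total-count scaling (−1.43, DESeq2 Padj = 7.72e-06) and without any 1 library. Nusap1, which encodes a spindle-associated protein, had 141, 126 and 129 normalized counts in Control against 72.0, 35.1 and 78.4 after IDPN, also without overlap. Its log2-Fold_Change of −1.09 (DESeq2 Padj = 0.0365, SE 0.35) was not called by edgeR (Padj = 0.121) or under total-count scaling (−0.80, DESeq2 Padj = 0.268), and among fits without 1 library only that without IDPN 3 called it.

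Kif11, which encodes the kinesin that separates spindle poles, was named after its values were seen, since its mean was under 20. It had 0 estimated counts in all 3 Control libraries and 21, 11 and 10 in IDPN. Against a floor of 3 counts in each Control library, its mean normalized count was at least 3.86-fold higher in IDPN (DESeq2 Padj = 0.00556, edgeR Padj = 0.0278). Kif11 passed the count filters of both tests through its IDPN counts alone. With that and its choice by value, these Padj are a description and no support for a rise. Without Control 1 (Padj = 0.0274) and without Control 2 (Padj = 0.0274) DESeq2 called Kif11, while in the other fits that left out a library, and under total-count scaling, it was too low to be tested and the call was lost.

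Promoters were compared because cell cycle genes are known to share short elements upstream of their start: CCAAT, bound by NF-Y, TTTGAA, the core of the cell cycle homology region, and TTGGCGC and TTCGCGC, forms of the E2F site. RefSeq promoters on GRCm38.p6 were found for 28 of the 36 genes, and none for Ccnd2 or Cdkn1c. The 250 bases before the start are shown for the called genes Plk1 and Cdc20, which moved in opposite directions, and for Mcm5 and Mcm6, the 2 helicase subunits with the highest estimates. They lie at chr4:118437344-118437593 (Cdc20, minus strand), chr7:122159185-122159434 (Plk1, plus strand), chr8:75109259-75109508 (Mcm5, plus strand) and chr1:128359706-128359955 (Mcm6, minus strand). Each is written 5′ to 3′ on the strand of its gene, with a match of any of these elements on either strand in capitals.
Cdc20: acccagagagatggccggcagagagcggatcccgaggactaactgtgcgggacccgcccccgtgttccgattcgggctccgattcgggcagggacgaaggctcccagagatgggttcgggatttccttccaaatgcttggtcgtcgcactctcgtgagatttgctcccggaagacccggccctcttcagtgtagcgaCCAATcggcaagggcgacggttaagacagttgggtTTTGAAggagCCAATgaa
Plk1: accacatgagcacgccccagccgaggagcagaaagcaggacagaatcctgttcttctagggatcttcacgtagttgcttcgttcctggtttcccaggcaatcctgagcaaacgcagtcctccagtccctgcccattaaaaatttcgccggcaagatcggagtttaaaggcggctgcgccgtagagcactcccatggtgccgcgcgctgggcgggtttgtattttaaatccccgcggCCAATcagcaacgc
Mcm5: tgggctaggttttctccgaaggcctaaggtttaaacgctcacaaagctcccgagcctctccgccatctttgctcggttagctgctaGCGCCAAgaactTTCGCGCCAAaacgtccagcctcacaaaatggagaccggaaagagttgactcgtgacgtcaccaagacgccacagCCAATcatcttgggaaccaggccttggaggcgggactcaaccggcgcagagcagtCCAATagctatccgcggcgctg
Mcm6: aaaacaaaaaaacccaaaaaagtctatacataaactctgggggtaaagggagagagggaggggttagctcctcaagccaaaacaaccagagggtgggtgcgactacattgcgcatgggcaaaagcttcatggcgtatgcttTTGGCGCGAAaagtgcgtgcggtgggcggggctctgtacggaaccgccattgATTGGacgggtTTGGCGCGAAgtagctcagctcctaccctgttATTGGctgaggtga

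Plk1 and Cdc20 both carried CCAAT close to the start, with its first base 14 bases upstream in Plk1 and 53 and 8 bases upstream in Cdc20. Only Cdc20 of the pair also held TTTGAA, 18 bases upstream. These distances are from the RefSeq start. The bases that follow this start were found in a GENCODE M21 transcript for Cdc20 but not for Plk1, Mcm5 or Mcm6. Mcm5 and Mcm6 held CCAAT as well, and both held TTGGCGC and TTCGCGC, some matches of which overlap on opposite strands. CCAAT was present in 20 of the 28 genes (71.4%), beside 37.5% of 27025 genes with a promoter. TTTGAA was present in 6 of the 28 (21.4%), beside 18.3% of all genes, and either E2F form in 5 (17.9%), beside 3.66%. The E2F forms were found in Ccnb1, Cdk1, Mcm5, Mcm6 and Mki67, whose levels ranged from near the floor to 192 normalized counts in IDPN. A match is a stretch of letters and not a measured binding site.

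Markers of other cells in the dissected tissue were counted beside these results. Of 12 macrophage markers 1 was called higher, with 5 higher and 0 lower at an unadjusted DESeq2 p under 0.05. Their sum ran from 2354 to 3248 normalized counts in Control and from 2901 to 4127 in IDPN. Of 5 erythroid markers 4 were called higher. The sum of the 5 ran from 16166 to 36635 in Control and from 34689 to 49091 in IDPN, and these ranges overlapped. The edgeR test called 0 of the 12 macrophage and 0 of the 5 erythroid markers. Hba-a1, Hba-a2 and Hbb-bs were each called in 1 of 6 fits that left out a library, and Alas2 in 2. The sum of 6 Schwann cell markers ran from 101960 to 224626 in Control and from 90542 to 109768 in IDPN. Of these markers DESeq2 called 1 higher and 0 lower, with 2 lower at an unadjusted p under 0.05. The gene called was Sox10, at 1938 to 3073 in Control against 4025 to 4752 in IDPN. Its log2-Fold_Change was 0.80 (DESeq2 Padj = 0.00108, edgeR Padj = 0.0464). The sum of 6 stromal markers ran from 20441 to 39051 in Control and from 35993 to 38675 in IDPN. That of 6 melanocyte markers ran from 6366 to 14355 and from 14606 to 22129. The melanocyte sums did not overlap, and DESeq2 called 0 of these 6 markers, with 3 at an unadjusted p under 0.05 and 0 called by edgeR. Endothelial markers summed to between 5428 and 9786 in Control and between 4982 and 7712 in IDPN, with 1 of 5 called lower. Of 5 neutrophil markers, Ly6g and Elane were at 0 in all libraries, while S100a8 had 0 to 16 estimated counts, S100a9 0 to 19 and Mpo 0 to 3, and 1 of 8 lymphocyte markers was high enough to be tested. The part of each of these cell types in the values of Ccnd2, Cdkn1c, Plk1, Cdc20 and Nek2 was not tested. Nor was the part of the lower HC marker sum in these values.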

How the data were processed

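RNA-seq libraries of mouse vestibular epithelium were compared between 3 Control and 3 IDPN animals, grouped by their GEO labels. Per the labels and the study's methods, SMART-seq2 libraries were aligned to GRCm38 with STAR 2.5.3a and quantified with RSEM 2.3.0. The deposited values are RSEM estimated counts in whole numbers, neither normalized nor filtered by the authors. RSEM divides reads that match several genes, and the protocol keeps no strand, so near-identical or overlapping genes can exchange reads.

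Differences were tested over all genes with DESeq2 1.42.0 in R 4.3.3 (Wald test, median-of-ratios size factors, no covariate, Benjamini-Hochberg adjustment). A gene was called at Padj under 0.05 and a fold change above 1.5, the thresholds of the study. Independent filtering left 17650 genes with a Padj. The edgeR 4.0.16 quasi-likelihood test was an alternative, as were other scaling, filters and leaving out each library. Levels were normalized counts, divided by exon length (GENCODE M21, a later release than that used for counting) where genes are compared. The code was tested on simulated data.

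The 36 genes and the comparison lists were chosen with earlier results of these data known. All 36 are named, with values in every library for called genes, for genes whose call changed with an alternative, for the highest and lowest gene of each role per length, and for Mki67, Top2a, Cdk1, Ccnb1, Cdkn1a and Cdkn1b. Further cell cycle genes were named when called, if their normalized counts averaged 20 or more. Promoter bases came from RefSeq (GRCm38.p6), with motifs searched on both strands. Total estimated counts were 40474847 to 43566332 per library.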

Additional observations from a re-analysis of the deposited data

How the results depend on the processing

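Of the 28 genes tested, 4 were called (2 higher, 2 lower), beside 5.75% of all genes tested. The edgeR test called 1 of 26 (0 higher, 1 lower), beside 3.21%. Total-count scaling gave 3 of 27 (3 higher, 0 lower), beside 4.92%. DESeq2 without independent filtering called 3 (1 higher, 2 lower), a fit for which the share over all genes was not counted. Leaving out 1 library gave 1 to 5 calls, with 0 to 3 higher and 1 to 2 lower. The fewest came without IDPN 2 (beside 4.62% of all genes) and the most without Control 3 (beside 8.33%). Over these fits the share of all genes ran from 3.9% to 8.33%. Of the 106 further cell cycle genes tested, 3 were called (1 higher, 2 lower), beside 5.75% of all genes. The higher one was Kif11, which passed the count filters through its IDPN counts alone. The edgeR test (2 of 97 called, beside 3.21%) and DESeq2 without independent filtering each kept 1 lower call. Total-count scaling called 1 of 98 (0 higher, 1 lower), beside 4.92%, Kif11 being too low to be tested there. Fits without 1 library gave 1 to 2 (0 to 1 higher, 1 to 2 lower), beside 3.9% to 8.33%. The minimum of 10 counts in 3 libraries, the Cook's distance filter switched off, protein-coding genes only and Padj without a fold threshold left each of these counts within 1.5 times its value.

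Signs turned for genes near 0. Under total-count scaling Ccnd3 was 0.21, Cdk4 0.22, Mcm4 0.24 and Mcm7 0.074 on the log2 scale. Leaving out 1 library gave a log2-Fold_Change from −0.14 to 0.035 for Ccnd3, −1.65 to 1.91 for Ccne1, −0.16 to 0.035 for Cdk4 and −0.13 to 0.11 for Mcm4. Over the alternatives for single genes, 296 kept the direction and the side of the threshold, 18 lost the call, 5 gained it and 13 changed sign, and the cause was not tested. The summed levels of groups of genes stayed within their spread in 57 alternatives and moved beyond it in 7, of which 6 were total-count scaling and 1 the mitosis sum without IDPN 2.

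No paired analysis was possible because the labels give the animals no replicate numbers or pairs. Genes near the floor of 3 counts, such as Mki67, Top2a and Bub1, were limited by depth.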
